A study of Mus musculus with 21 samples.

Results

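The BCL2 family genes described here are 10 genes of the mitochondrial pathway of apoptosis, taken by symbol from a count table of 24028 rows. They are the pro-survival genes Bcl2, Bcl2l1 (BCL-XL) and Mcl1, the BH3-only genes Bcl2l11 (BIM), Bbc3 (PUMA), Pmaip1 (NOXA), Bmf and Bad, and the effectors Bax and Bak1 (BAK). All 10 were found, and all 10 passed the filter on low counts that left 15792 genes to test. The samples were mouse mammary tumours of the genotype WAP-Cre/PIK3CA-H1047R, sequenced as polyA RNA in bulk: 7 labelled relapse under BYL719, 7 labelled stable under BYL719, and 7 treated with DMSO as vehicle. BYL719, or alpelisib, is an inhibitor of PI3K alpha, the kinase whose activated form PIK3CA-H1047R all 21 tumours carry, the vehicle tumours included. Cre is driven by the promoter of the whey acidic protein gene, which is active in secretory mammary epithelium of pregnancy and lactation. The series' design text calls the 2 treated groups responding and stable, while the sample labels call them relapse and stable. The sample labels are followed here. The labels give no age, dose or time of treatment.

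Pro-survival proteins hold the effectors BAX and BAK in check by binding them and their activators. BH3-only proteins, which are induced or freed by stress and by loss of growth factor signals, bind the pro-survival proteins, and some also activate BAX and BAK directly. The effectors then open the outer mitochondrial membrane, and cytochrome c released through it assembles the apoptosome with APAF1. In mammary epithelium BIM and BMF are known for the death of cells that lose matrix contact or fill a duct lumen. Signalling through PI3K and AKT restrains this arm at several points: AKT phosphorylates BAD, and it keeps FOXO transcription factors, which can activate Bcl2l11 and Bbc3, out of the nucleus.

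The deposited values are counts of reads per gene, with 17722622 to 21431465 counts in a relapse tumour, 13337848 to 24648463 in a stable tumour and 21043399 to 24873844 in a vehicle tumour. Levels below are CPM (each library's counts relative to its total, put on a common scale) scaled by TMM factors. Luminal epithelial markers, as the labelled tissue should have, were present in every group, with a summed level of 8 genes of 1958 to 3990 CPM in relapse tumours, 2176 to 4914 CPM in stable tumours and 2241 to 4573 CPM in vehicle tumours. Vehicle tumours 2, 6 and 7 stood apart from the rest: 9 basal and myoepithelial markers summed to 17653, 23444 and 10642 CPM in them. The same sum was 926 to 2155 CPM in relapse tumours, 229 to 1403 CPM in stable tumours and 1199 to 4119 CPM in the other 4 vehicle tumours. Of these 9 markers, edgeR called 6 lower than in vehicle in each treated group. DESeq2 called 6 lower in relapse and 8 in stable tumours, and limma voom 0 in both. Of 9 skeletal muscle markers, edgeR called 8 higher in relapse and 5 higher in stable tumours than in vehicle, DESeq2 9 and 7, and voom 7 and 0. They summed to 187 to 6986 CPM in relapse tumours, 214 to 4025 CPM in stable tumours and 211 to 533 CPM in vehicle tumours. Neutrophil markers summed to 8.51, 10.6 and 20.5 CPM in vehicle 2, 6 and 7. Their sum was 43.6 to 224 CPM in relapse tumours, 26.6 to 146 CPM in stable tumours and 150 to 426 CPM in the other vehicle tumours, and 0 of the 6 tested were called by edgeR in either comparison with vehicle (0 for relapse and 1 for stable tumours at an unadjusted p under 0.05, and 0 called by DESeq2 or voom). Of 8 fibroblast markers, edgeR called 2 higher in each treated group (Mfap5 and Fbln1) and 1 lower in stable tumours (Dcn), and of 6 adipocyte markers it called Lipe higher in both. Of the luminal markers, Kit was called higher in stable tumours. No marker of these 6 lists was at 0 in every tumour of a group. Of the macrophage and endothelial markers, edgeR called 0 in either comparison with vehicle. Of 6 tested T, NK and B cell markers it called Cd4 lower in relapse tumours (log2 fold change -1.57 ± 0.48, adjusted p = 0.0397). For stable tumours Cd4 was at -1.41 (adjusted p = 0.0512). The part of these other cells in the results was not tested. Each edgeR call of a member or other apoptosis gene is also given without vehicle tumours 2, 6 and 7. In bulk tissue, fewer cells of a type and less RNA per cell cannot be told apart.

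The titles also carry a code, unexplained in the labels, with 7 values in relapse, 4 in stable and 3 in vehicle tumours. Relapse and stable tumours share 2 codes, and vehicle shares 0 with either. Whether tumours of one code grew in one animal is unknown. P-values here therefore reflect the variation among tumours only, and code and treatment cannot be told apart in a comparison with vehicle. Fits on counts summed per code are given beside the calls they change.

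Most calls were of BH3-only genes: 2 of 5 higher in relapse tumours, and 3 higher and 1 lower of 5 in stable tumours. Bmf and Bbc3 were higher in both treated groups than in vehicle tumours, Bcl2l11 was higher in stable tumours, and Bad and the effector Bak1 were lower in stable tumours. In edgeR's quasi-likelihood test, called at a Benjamini-Hochberg adjusted p under 0.05 over all 15792 genes, 2 of the 10 members were called in relapse against vehicle, 2 higher and 0 lower. The share over all genes tested was 11.2%, with 5.42% higher and 5.8% lower. In stable against vehicle 5 of 10 were called, 3 higher and 2 lower, where the share over all genes was 15.1%, with 6.9% higher and 8.16% lower. The median log2 fold change of the 10 members was 0.11 for relapse and 0.04 for stable against vehicle, and over all genes it was -0.02 and -0.0048. Without vehicle tumours 2, 6 and 7, members called numbered 0 for relapse and 1 for stable, beside 3.28% and 5.27% of 16081 genes. The 2 comparisons share the vehicle tumours and are not independent of each other.

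**Figure D1:**
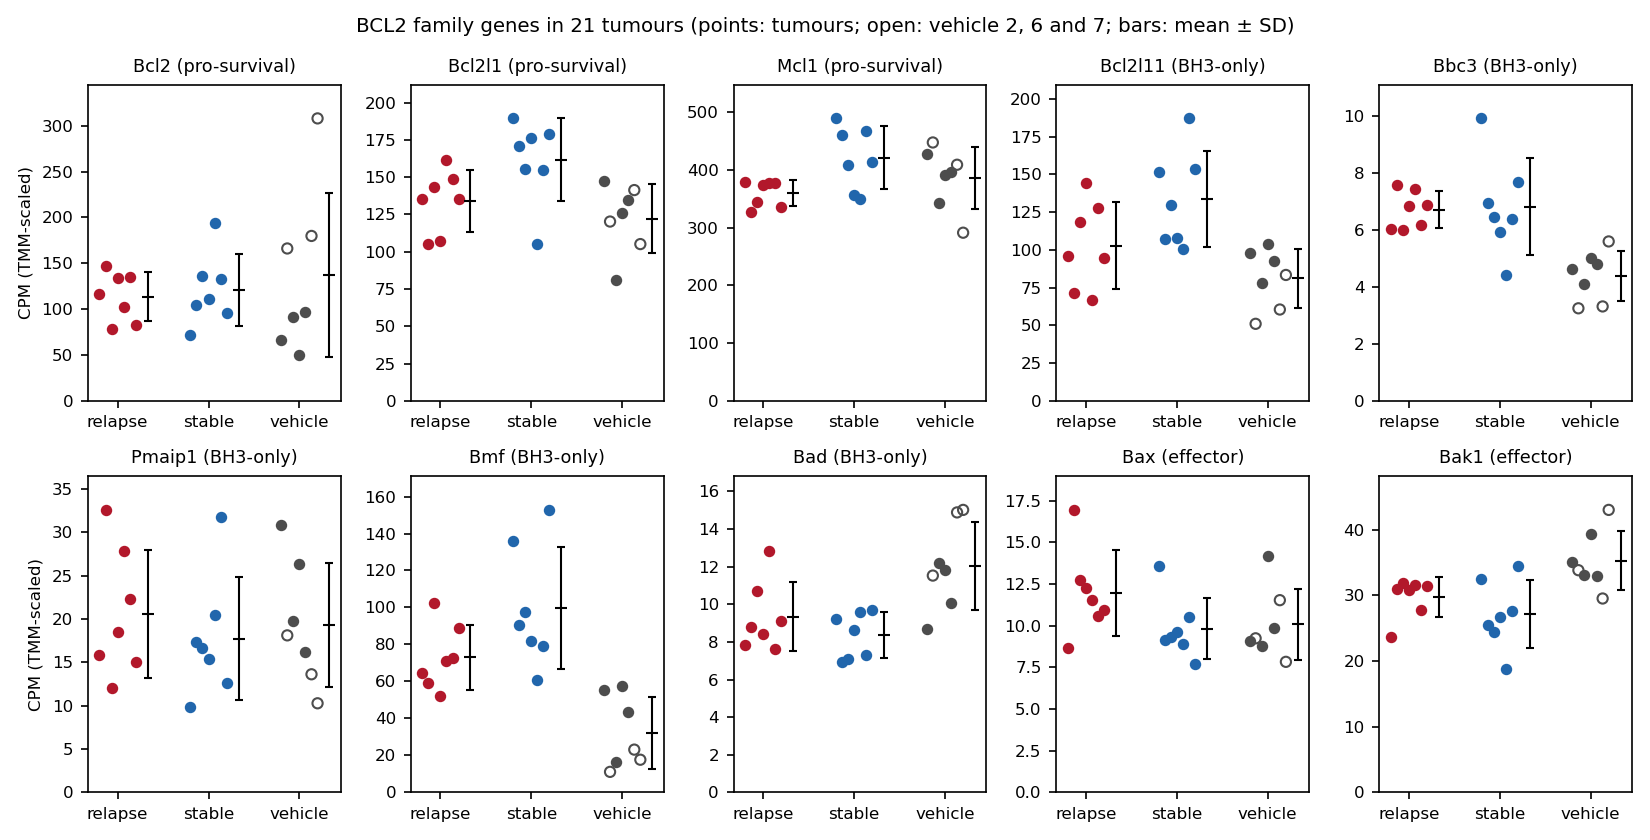
Level of each of the 10 BCL2 family genes in every tumour (vertical axis, TMM-scaled CPM, starting at 0), with relapse, stable and vehicle tumours from left to right. Points are tumours, open points are vehicle 2, 6 and 7, and bars give the mean and SD of 7 tumours. All 7 stable tumours lie above every vehicle tumour in Bmf, and all 7 relapse tumours lie above every vehicle tumour in Bbc3.

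Bmf encodes a BH3-only protein that is held at the cytoskeleton and binds the pro-survival proteins on loss of attachment. The gene (Entrez 171543) lies on the minus strand of chr2:118528757-118549686 in GRCm38.p6. Its lowest, median and highest levels were 52.1, 70.9 and 103 CPM in relapse tumours, 60.8, 90.7 and 153 CPM in stable tumours, and 11.1, 23.1 and 57.7 CPM in vehicle tumours. Every stable tumour and 6 of 7 relapse tumours were above the highest vehicle tumour, and the relapse tumour below it was relapse 4. Bmf was 2.27-fold higher in relapse than in vehicle tumours (log2 fold change 1.18 ± 0.32 SE, n = 7 each, edgeR adjusted p = 0.0225). The difference of stable from vehicle tumours was 3.11-fold (1.64 ± 0.33, adjusted p = 0.00361), and groups that did not overlap in this direction were found for 1.56% of all genes. The vehicle tumours themselves were spread widely, with 11.1, 23.1 and 17.7 CPM in vehicle 2, 6 and 7, 16.2 CPM in vehicle 3, and 43.5 to 57.7 CPM in vehicle 1, 4 and 5. Vehicle 3 also had the highest basal and myoepithelial sum of the other 4, 4119 CPM. Among all vehicle tumours it had the lowest luminal sum (2241 CPM) and the highest macrophage (2783 CPM) and adipocyte (542 CPM) marker sums. The part of these cells in its Bmf level was not tested. Without vehicle 2, 6 and 7 the log2 fold change was 0.77 (adjusted p = 0.162) for relapse and 1.22 (adjusted p = 0.0320) for stable tumours, the one member call left. With counts summed per code both calls held, at 1.15 (adjusted p = 0.0274) and 1.64 (adjusted p = 0.0162). With counts summed per code and vehicle 2, 6 and 7 left out together, neither call held. The relapse call was lost without relapse 3 (adjusted p = 0.0560), vehicle 6 (adjusted p = 0.0549) or vehicle 7 (adjusted p = 0.0543).

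Bbc3 encodes PUMA, a BH3-only protein that binds all pro-survival members and is a classic p53 target. The gene (Entrez 170770) lies on the plus strand of chr7:16308398-16318334. It was the lowest of the members, with 71 to 228 reads in a tumour. Its lowest, median and highest levels were 6.01, 6.83 and 7.58 CPM in relapse tumours, 4.42, 6.47 and 9.91 CPM in stable tumours, and 3.25, 4.62 and 5.59 CPM in vehicle tumours. The relapse tumours formed the narrowest group and did not overlap vehicle, as was so for 1.53% of all genes in this direction, while 6 of 7 stable tumours were above the highest vehicle tumour. Bbc3 was higher by 0.61 ± 0.17 on the log2 scale in relapse (adjusted p = 0.0231) and by 0.64 ± 0.17 in stable tumours (adjusted p = 0.0172), against vehicle. Neither call held without vehicle 2, 6 and 7 (0.54, adjusted p = 0.0991, for relapse and 0.57, adjusted p = 0.0766, for stable) or with counts summed per code (0.64, adjusted p = 0.0798, and 0.63, adjusted p = 0.117). In these fits the fold changes stayed close to those above. The relapse call was also lost without relapse 7 (adjusted p = 0.0505), vehicle 2 (adjusted p = 0.0710) or vehicle 6 (adjusted p = 0.0720), and the stable call was kept in all 14 fits that left out 1 tumour.

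Bcl2l11 encodes BIM, which binds every pro-survival protein and can activate BAX and BAK. The gene (Entrez 12125) lies on the plus strand of chr2:128126038-128162547. The lowest, median and highest levels were 66.6, 96.0 and 144 CPM in relapse tumours, 100.3, 130 and 187 CPM in stable tumours, and 51.0, 83.4 and 104 CPM in vehicle tumours. Of the stable tumours 6 of 7, and of the relapse tumours 3 of 7, were above the highest vehicle tumour. Bcl2l11 was higher in stable than in vehicle tumours by 0.72 ± 0.19 on the log2 scale (adjusted p = 0.0191), and this call was kept in all 14 fits that left out 1 tumour. For relapse against vehicle the log2 fold change was 0.34 ± 0.19, with a 95% interval of -0.06 to 0.74 (adjusted p = 0.265). The stable call was lost without vehicle 2, 6 and 7 (0.53, adjusted p = 0.144) and with counts summed per code (0.72, adjusted p = 0.130).

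FOXO factors are known to bind the core GTAAACA. It was searched on both strands (as TGTTTAC on the other) in the RefSeq GRCm38.p6 promoters, each from 250 bases before to 50 after an annotated start, with several starts for some genes. Of these windows, 17 belong to 9 of the 10 members, and Pmaip1 has none. The core occurred in 1 promoter each of 2 members, Bcl2l11 and Bbc3, beside 4.05% of all 27025 genes with a promoter. By promoter it occurred in 2 of 17, beside 3.65% of all 32851. These 2 promoters are printed with the core in capitals as it reads on the gene's strand. They are followed by 1 of the 3 Bmf promoters, none of which holds it. The core begins 227 bases before the start in the Bcl2l11 window, at chr2:128125788-128126087 on the plus strand, and that start is the first base of the gene as given above. The Bbc3 window, at chr7:16310011-16310310 on the plus strand, belongs to 1 of 3 starts of that gene and lies inside its span, after its first base. There the core begins 167 bases before that one start and lies within the longer form TTGTTTAC, which 1.23% of all promoters hold. The Bmf window is chr2:118549637-118549936 on the minus strand.
Bcl2l11: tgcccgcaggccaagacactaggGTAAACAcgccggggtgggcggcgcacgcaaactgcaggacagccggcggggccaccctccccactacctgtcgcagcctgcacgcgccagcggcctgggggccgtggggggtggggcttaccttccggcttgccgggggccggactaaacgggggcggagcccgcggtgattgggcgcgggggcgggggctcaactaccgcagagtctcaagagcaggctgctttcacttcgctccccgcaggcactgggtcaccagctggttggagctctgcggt
Bbc3: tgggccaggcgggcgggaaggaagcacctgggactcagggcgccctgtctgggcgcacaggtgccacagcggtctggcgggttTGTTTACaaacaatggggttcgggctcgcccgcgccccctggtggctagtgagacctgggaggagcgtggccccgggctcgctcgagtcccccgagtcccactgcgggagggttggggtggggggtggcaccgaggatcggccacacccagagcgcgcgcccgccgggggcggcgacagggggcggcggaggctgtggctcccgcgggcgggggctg
Bmf: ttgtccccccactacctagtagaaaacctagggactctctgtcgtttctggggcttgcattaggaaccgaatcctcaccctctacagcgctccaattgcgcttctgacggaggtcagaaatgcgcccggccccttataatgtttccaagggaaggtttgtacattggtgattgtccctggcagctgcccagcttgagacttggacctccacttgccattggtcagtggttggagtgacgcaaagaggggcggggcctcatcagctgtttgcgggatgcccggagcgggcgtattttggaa
The letters describe these windows alone, and no binding was measured.

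Pmaip1 encodes NOXA, a p53-induced BH3-only protein that binds mainly MCL1. Its lowest, median and highest levels were 12.1, 18.6 and 32.6 CPM in relapse tumours, 9.82, 16.7 and 31.8 CPM in stable tumours, and 10.3, 18.1 and 30.9 CPM in vehicle tumours. The 3 groups spanned nearly the same range. The log2 fold change was 0.09 ± 0.27 for relapse (adjusted p = 0.869) and -0.12 ± 0.27 for stable tumours (adjusted p = 0.789), against vehicle.

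Bad encodes a BH3-only protein that binds BCL2 and BCL-XL unless it is phosphorylated by AKT and other kinases. The gene (Entrez 12015) lies on the plus strand of chr19:6941861-6951905. Its lowest, median and highest levels were 7.62, 8.78 and 12.8 CPM in relapse tumours, 6.94, 8.63 and 9.68 CPM in stable tumours, and 8.68, 11.8 and 15.0 CPM in vehicle tumours. All 7 stable tumours were below the vehicle median and 4 were below the lowest vehicle tumour. Bad was lower in stable than in vehicle tumours (log2 fold change -0.53 ± 0.15, adjusted p = 0.0252). For relapse tumours the value was -0.37 ± 0.15 (adjusted p = 0.117). The stable call was lost without vehicle 2, 6 and 7 (-0.34, adjusted p = 0.228) and with counts summed per code (-0.42, adjusted p = 0.249). It was also lost without stable 2 or 3 (adjusted p = 0.0514 each) and without vehicle 2 (0.0507), 6 (0.0751) or 7 (0.0724). Bad shares 524 exon bases with Gpr137 on the other strand, which had 144 to 356 reads in a tumour beside 99 to 319 for Bad. The sources used here do not state whether counting used strand, so the 2 genes' reads may not be fully separated. Gpr137 itself had log2 fold changes of 0.04 for relapse and -0.14 for stable tumours (adjusted p = 0.917 and 0.610).

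Of the 2 effectors, Bak1 was called in stable against vehicle, and Bax in no comparison. Bak1 (Entrez 12018, minus strand of chr17:27019812-27028627), whose protein sits in the outer mitochondrial membrane of healthy cells, had lowest, median and highest levels of 23.7, 31.0 and 31.9 CPM in relapse tumours, 18.8, 26.7 and 34.5 CPM in stable tumours, and 29.5, 33.8 and 43.0 CPM in vehicle tumours. All 7 relapse tumours were below the vehicle median, and 5 of 7 stable tumours were below the lowest vehicle tumour. Bak1 was lower in stable than in vehicle tumours (log2 fold change -0.38 ± 0.12, adjusted p = 0.0403). This call held in 4 of 14 fits that left out 1 tumour, with adjusted p from 0.0195 to 0.125. It was lost with upper quartile factors (-0.33, adjusted p = 0.0573) or DESeq2 size factors in edgeR (-0.37, adjusted p = 0.0518), without vehicle 2, 6 and 7 (-0.36, adjusted p = 0.133) and with counts summed per code (-0.36, adjusted p = 0.281). For relapse tumours the value was -0.25 ± 0.12 (adjusted p = 0.192). Bak1 overlaps Ggnbp1, a gene on the other strand with at most 127 reads in a tumour beside 337 to 905 for Bak1. Ggnbp1 itself had log2 fold changes of 0.93 ± 0.27 for relapse (adjusted p = 0.0315) and 0.66 ± 0.27 for stable tumours (adjusted p = 0.102). As for Bad, the reads of the 2 genes may not be fully separated, and the part of the overlap in the Bak1 values was not tested.

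Bax, whose protein is mostly cytosolic until activated, had lowest, median and highest levels of 8.65, 11.6 and 16.9 CPM in relapse tumours, 7.72, 9.34 and 13.6 CPM in stable tumours, and 7.83, 9.24 and 14.2 CPM in vehicle tumours. The groups overlapped throughout. The gene (Entrez 12028) lies on the minus strand of chr7:45461695-45466903, where it shares 192 exon bases with the same-strand gene Gm45808. Its log2 fold change was 0.25 ± 0.16 for relapse (adjusted p = 0.337) and -0.04 ± 0.16 for stable tumours (adjusted p = 0.899), against vehicle.

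None of the 3 pro-survival genes was called by edgeR in a comparison with vehicle. At an unadjusted p under 0.05 there were 0 for relapse and 1 for stable tumours, beside 27.5% and 31.1% of all genes. DESeq2 called 0 and 1, beside 15.6% and 19% of the genes it tested. The 1 gene was Bcl2l1, whose protein BCL-XL guards the outer mitochondrial membrane in many epithelia. The gene (Entrez 12048) lies on the minus strand of chr2:152758732-152833803. Its lowest, median and highest levels were 105, 136 and 162 CPM in relapse tumours, 106, 171 and 189 CPM in stable tumours, and 81.1, 126 and 147 CPM in vehicle tumours. Of the stable tumours 6 of 7 were above the highest vehicle tumour, and the exception was stable 5. The log2 fold change was 0.40 ± 0.14 in stable tumours (adjusted p = 0.0569) and 0.13 ± 0.14 in relapse tumours (adjusted p = 0.592). It was called for stable tumours by DESeq2 (adjusted p = 0.0378) and with upper quartile factors (adjusted p = 0.0363). In edgeR it was also called without stable 5 (adjusted p = 0.0186) or vehicle 1 (adjusted p = 0.0453). The other 12 of 14 edgeR fits that left out 1 tumour did not call it (adjusted p up to 0.109). Nor was it called by voom, without vehicle 2, 6 and 7, or with counts summed per code.

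Mcl1, which encodes a short-lived protein that must be made continuously, had lowest, median and highest levels of 327, 374 and 380 CPM in relapse tumours, 349, 414 and 489 CPM in stable tumours, and 291, 397 and 448 CPM in vehicle tumours. The gene (Entrez 17210) lies on the plus strand of chr3:95656944-95663179. All 7 relapse tumours were below the vehicle median and within the vehicle range. The log2 fold change against vehicle was -0.10 ± 0.10 for relapse (adjusted p = 0.537) and 0.12 ± 0.10 for stable tumours (adjusted p = 0.420).

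Bcl2, the founding member of the family, had lowest, median and highest levels of 78.8, 117 and 147 CPM in relapse tumours, 71.6, 111 and 194 CPM in stable tumours, and 50.6, 97.0 and 308 CPM in vehicle tumours. The 3 highest vehicle levels, 166, 180 and 308 CPM, were those of vehicle 2, 6 and 7, and the other 4 vehicle tumours averaged 76.3 ± 21.8 CPM (SD). The gene (Entrez 12043) lies on the minus strand of chr1:106538176-106714290 and shares 558 exon bases with the antisense gene D630008O14Rik. The direction of its difference changed when these 3 tumours were left out. With 1 tumour left out the log2 fold change also reached 0.064 for relapse and 0.16 for stable tumours. For stable tumours it was positive with counts summed per code as well. With all tumours the log2 fold change was -0.27 ± 0.31 for relapse (adjusted p = 0.629) and -0.18 ± 0.31 for stable tumours (adjusted p = 0.730), and without the 3 it was 0.58 (adjusted p = 0.179) and 0.68 (adjusted p = 0.111).

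**Figure D2:**
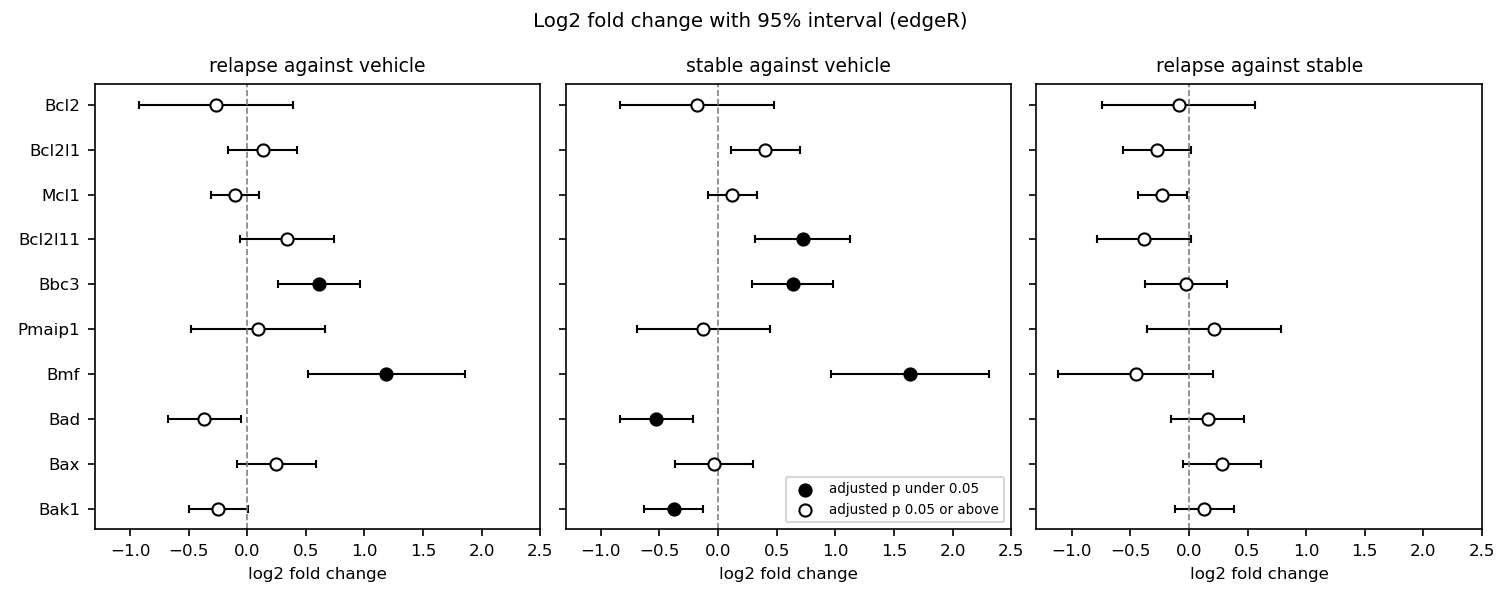
Log2 fold change of each member (horizontal axis) with its 95% interval from edgeR, for relapse over vehicle, stable over vehicle and relapse over stable tumours. Filled symbols are called at an adjusted p under 0.05, which holds for 2, 5 and 0 members.

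**Figure D3:**
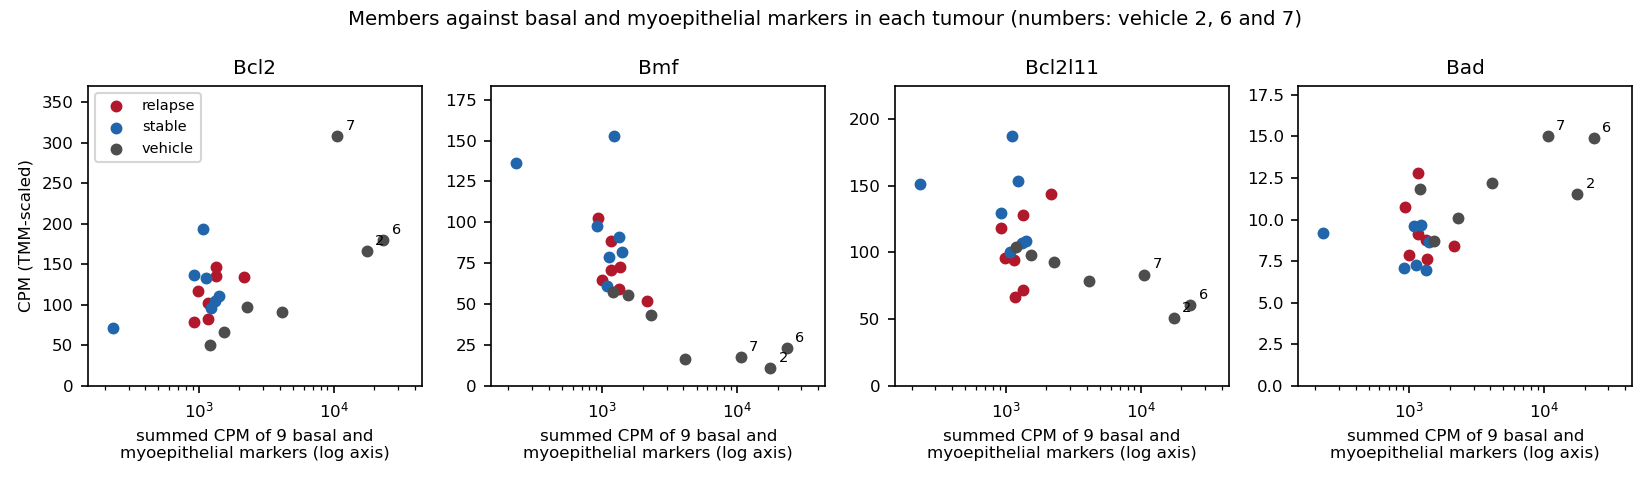
Levels of Bcl2, Bmf, Bcl2l11 and Bad (vertical axes, TMM-scaled CPM, starting at 0) against the summed CPM of 9 basal and myoepithelial markers (horizontal log axis) in each tumour of the 3 groups. Vehicle 2, 6 and 7 are numbered and lie at 10642 CPM or more on the horizontal axis, apart from the other 18 tumours.

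**Figure D4:**
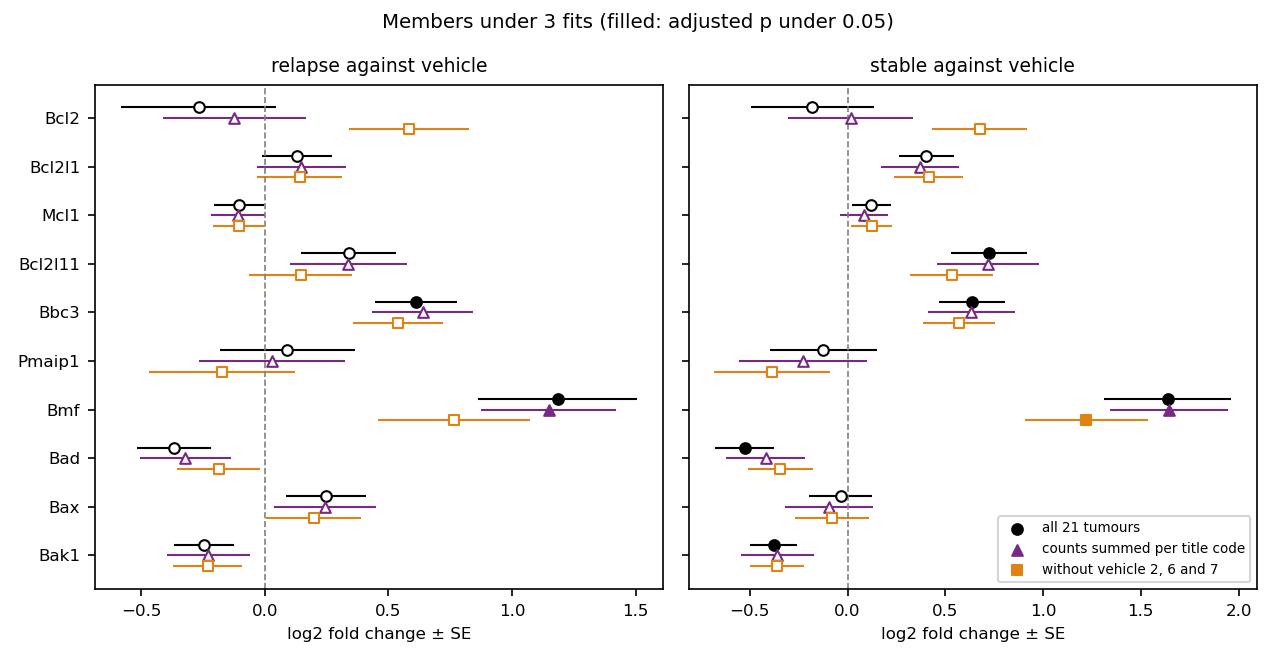
Log2 fold change of each member with its SE (horizontal axis) for both comparisons with vehicle, from all 21 tumours, after summing the counts of each title code, and with vehicle 2, 6 and 7 left out. Filled symbols are called at an adjusted p under 0.05, and Bmf in stable tumours is filled in all 3 fits. It was not called in a fit, not drawn here, that made both changes together.

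Relapse and stable tumours, compared directly, gave 0 called members in edgeR, and 0 of 15792 genes were called in all (0%). At an unadjusted p under 0.05 there was 1 member of 10, beside 4.76% of all genes. DESeq2 called 0 members and 7 genes in all (0.0306%), and limma voom 0 and 0. The 1 member was Mcl1, at 327 to 380 CPM in relapse and 349 to 489 CPM in stable tumours, with all 7 relapse tumours below the stable median. Its log2 fold change was -0.23, with a 95% interval of -0.43 to -0.02 (edgeR adjusted p = 0.990). For Bcl2l11 the value was -0.38 (interval -0.79 to 0.018), for Bcl2l1 -0.27 (-0.56 to 0.02) and for Bmf -0.45 (-1.11 to 0.21). Bbc3 had -0.024 (-0.37 to 0.32), Bax 0.28 (-0.05 to 0.62), Pmaip1 0.22 (-0.35 to 0.79), Bad 0.16 (-0.15 to 0.47), Bak1 0.13 (-0.12 to 0.38) and Bcl2 -0.09 (-0.74 to 0.57). Bcl2l11, Bad and Bak1, called in stable and not in relapse tumours against vehicle, therefore had no called difference between the treated groups.

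The 2 codes that relapse and stable tumours share each hold 1 tumour of either kind, relapse 5 with stable 5 and relapse 6 with stable 7. Within them the log2 ratio of relapse to stable was -0.59 and -0.27 for Bcl2l11. For Mcl1 it was 0.11 and -0.13, and for Bmf 0.22 and -1.07. Bcl2l11 was the one member lower in the relapse tumour of both codes, and Bax (0.38 and 0.46) and Pmaip1 (0.44 and 0.81) were higher in both. Every other member was lower in the relapse tumour of 1 code and higher in that of the other. Stable 5 had the highest skeletal muscle sum (4025 CPM) and the lowest luminal sum (2176 CPM) of the stable tumours. With 1 tumour of each kind per code there is no test.

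Levels between genes were compared as CPM per kb of deposited gene width. Mcl1 was highest in every group, at a mean of 103 CPM per kb in relapse, 121 in stable and 111 in vehicle tumours, and its range did not overlap that of any other member. Bcl2l1 came second, at 29.0, 35.0 and 26.5 CPM per kb, and Bbc3 last, at 3.39, 3.45 and 2.22. Bmf held the place after Bcl2l1 in relapse (15.1) and stable tumours (20.7), and was next to last in vehicle tumours (6.66). The order in between rested on small gaps: in relapse tumours the ranges of neighbours overlapped from Bmf (15.1) through Bak1 (14.7), Bcl2 (14.7), Bcl2l11 (13.2), Bax (8.93) and Pmaip1 (7.76) to Bad (6.14). In stable tumours each neighbouring pair from Bcl2l1 down overlapped. In vehicle tumours each neighbouring pair from Bcl2l11 down did, Bmf included. The low place of Bmf there turned on vehicle 2, 6 and 7. Without them it averaged 8.95 CPM per kb, beside 8.79 for Pmaip1, 7.82 for Bax and 7.04 for Bad.

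Genes around the family were read from 4 lists of 52 genes, of which 50 were tested. Hrk and Bcl2l10 did not pass the filter, with at most 0.999 and 0.710 CPM in a tumour. Of the 50, edgeR called 1 higher and 0 lower in relapse against vehicle, beside 11.2% of all genes, and 1 higher and 2 lower in stable against vehicle, beside 15.1%. In relapse against stable it called 0, beside 0% of all genes. Their median log2 fold changes were -0.03, 0.02 and -0.10. None of the 11 tested relatives (Bid, Bik, Bok, Bcl2l2 and others) was called by edgeR or voom in any comparison, and 0, 2 and 1 had an unadjusted p under 0.05, beside 27.5%, 31.1% and 4.76% of all genes, in the order of the 3 comparisons above. DESeq2 was run without the filter, on all 13 relatives, Hrk and Bcl2l10 included. It called 2 of the 13 in stable against vehicle, 1 higher and 1 lower, beside 19% of the genes it tested. Bcl2a1a, Bcl2a1b and Bcl2a1d are near-identical copies, and their counts are uncertain. In the death receptor branch 0 of 10 were called by edgeR, with 1, 2 and 0 at an unadjusted p under 0.05, and DESeq2 called 1 lower in stable against vehicle.

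The gene called higher in both comparisons was Apaf1, the scaffold of the apoptosome. It averaged 73.6 ± 9.17 CPM in relapse, 81.1 ± 8.12 CPM in stable and 55.0 ± 10.7 CPM in vehicle tumours (SD, n = 7 each). The log2 fold change came to 0.42 ± 0.12 for relapse (adjusted p = 0.0281) and 0.56 ± 0.12 for stable tumours (adjusted p = 0.00564). Without vehicle 2, 6 and 7 it was 0.25 (adjusted p = 0.195) and 0.39 (adjusted p = 0.0432), and with counts summed per code the adjusted p was 0.0803 and 0.0612. In a fit of the 2 groups alone the relapse call was lost (adjusted p = 0.0523). The relapse call was lost when relapse 4, 6 or 7 or vehicle 2, 6 or 7 was left out. Bag3, a co-chaperone that binds BCL2, was lower in stable tumours, at 33.8 ± 8.94 CPM against 78.0 ± 27.5 CPM in vehicle (-1.21 ± 0.22, adjusted p = 0.00189), and this call held with counts summed per code (-1.13, adjusted p = 0.0131). Relapse tumours averaged 50.8 CPM (40.9 to 60.1 CPM), a log2 fold change of -0.62 that edgeR did not call (adjusted p = 0.0689). It was called by DESeq2 (adjusted p = 0.0364) and in edgeR without vehicle 1 (0.0352) or vehicle 4 (0.0366). Without vehicle 2, 6 and 7 the log2 fold change was -0.18 (adjusted p = 0.661) for relapse and -0.77 (adjusted p = 0.0343) for stable tumours, and with counts summed per code as well the stable call was lost (adjusted p = 0.0551). Ddit3, which encodes the stress factor CHOP, was lower in stable tumours, at 11.6 ± 1.62 CPM against 19.4 ± 10.1 CPM in vehicle (-0.74 ± 0.24, adjusted p = 0.0405), but at -0.22 (adjusted p = 0.509) without vehicle 2, 6 and 7. DESeq2 kept this call (adjusted p = 0.0216). It was lost with counts summed per code (-0.64, adjusted p = 0.0986), in voom (0.0920), with upper quartile factors (0.0569), with no filter (0.0512), in a fit of the 2 groups (0.104), and with any of stable 2, 3, 4, 6 and 7 or vehicle 2, 3, 6 and 7 left out. Relapse tumours had 12.8 ± 2.56 CPM of Ddit3, a log2 fold change of -0.60 (adjusted p = 0.102). It was called without vehicle 4 (adjusted p = 0.0460), and it was -0.083 (adjusted p = 0.838) without vehicle 2, 6 and 7.

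For each called member, the 2 genes whose log2 CPM ran most alike over the 21 tumours were found among 12831 genes by Pearson's r, as a description over tumours that share the marker shifts above. For Bmf they were Erbb3 (r = 0.94, and 0.90 over the 18 tumours without vehicle 2, 6 and 7) and Fam63a (0.93 and 0.86). For Bcl2l11 they were Slx4ip (0.87 and 0.86) and Casp2 (0.85 and 0.76). Bbc3 ran most like F11r (0.89 and 0.81) and Timd2 (0.89 and 0.80), Bad like Keap1 (0.88 and 0.78) and Slc39a7 (0.87 and 0.82), and Bak1 like Hdlbp (0.91 and 0.90) and Pdia4 (0.90 and 0.89).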

How the data were processed

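RNA of 21 snap-frozen tumours was made into stranded polyA libraries and sequenced as single-end reads, per the labels' protocols. The authors deposited counts of reads per gene, as 1 table, with gene widths in another column. The submitters' processing notes name STAR 2.5.2a, SAMtools 1.3.1, Picard 2.9.2, edgeR and the build mm10. For the counting step and its strand setting: not given in the sources used here.

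Counts were tested as deposited in edgeR 4.0.16 (R 4.3.3), with TMM factors, filterByExpr by group, a quasi-likelihood F test in a model of 3 group means over all 21 tumours, and Benjamini-Hochberg adjustment over 15792 genes. A gene was called at an adjusted p under 0.05. Of 24028 rows in the table, 10202 carry an extra leading cell, so each row was read from its end, and 1175 rows are 0 in every tumour. No pair of tumours in a group differed by as little as sampling noise (lowest chi-square per degree of freedom 17.6). The alternatives were DESeq2 1.42.0 (its test, and its size factors in edgeR), limma 3.58.1 voom with title codes as random effects (within-code correlation -0.0397), upper quartile factors, no filter, fits of 2 groups, a replicate block, counts summed per title code, and tumours left out. The test was checked on simulated counts with known changes. These were drawn independently for each tumour, so the check does not cover shared codes or vehicle tumours that stand apart.

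All 10 members are named. A gene of the surrounding lists is described by name where edgeR called it in at least 1 comparison, and calls by DESeq2 alone are only counted. The 2 genes most like each called member are also named, among genes with a mean log2 CPM (prior count 2) of at least 1 and without predicted-gene symbols. The members and lists were chosen with earlier results of these data known. Positions and promoters are those of RefSeq on GRCm38.p6, and exon overlaps were taken from GENCODE. Count totals limit precision for the low genes Bbc3, Bad and Bax.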

Additional observations from a re-analysis of the deposited data

Results flagged for a closer look

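Bcl2l1 was set apart by 1 tumour: its level in stable 5 was 106 CPM, while the nearest stable tumour had 155 CPM and the highest 189 CPM. The gap is 0.658 of the group's range, above Dixon's 95% critical value for 7 tumours. This was the 1 flag among 30 groups checked (10 genes in 3 groups), and chance alone flags about 1 in 20 groups. Stable 5 stood at an end of the stable tumours in 6 of the 9 marker lists as well. Its summed levels were the highest for skeletal muscle (4025 CPM), fibroblast (8361 CPM), endothelial (313 CPM), adipocyte (469 CPM) and T, NK and B cell markers (40.1 CPM), and the lowest for luminal epithelium (2176 CPM). The part of those cells in this value was not tested.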

How the results depend on the processing

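Genes called in relapse against vehicle (1772) numbered 2870 by DESeq2, 987 with a replicate block, 955 with counts summed per code, 527 without vehicle 2, 6 and 7, 180 with both, and 1156 to 2060 with 1 tumour left out, lowest without vehicle 6 (1156) and vehicle 2 (1160). In stable against vehicle (2378) they were 964 in a fit of the 2 groups, 1251 with the block, 592 summed, 847 without the 3 tumours, 172 with both, and 1470 to 3272 with 1 left out, lowest without vehicle 6 (1470) and vehicle 2 (1496). In relapse against stable (0) DESeq2 called 7, and leaving out 1 tumour gave 0 to 4 (4 without relapse 4, 1 without stable 5). With upper quartile factors the split of higher and lower calls was 953 and 673 for relapse against vehicle, beside 856 and 916 with TMM. Members called in relapse against vehicle (2) were 1 with no filter, with the block or summed, 0 without the 3 vehicle tumours or with both, and 0 to 2 with 1 left out. In stable against vehicle (5) they were 2 in the fit of 2 groups, 3 with the block, 1 summed, 1 without the 3, 0 with both, and 3 to 5 with 1 left out (3 without stable 2 or 3 or vehicle 2, 6 or 7). With upper quartile factors the 5 were 4 higher and 1 lower, beside 3 and 2.

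Uncalled log2 fold changes that turned were these. In relapse against vehicle, Bcl2 was 0.58 without the 3 vehicle tumours, 0.51 with both, and -0.42 to 0.064 with 1 left out; Pmaip1 was -0.17, -0.22, and -0.057 to 0.22. In stable against vehicle, Bcl2 was 0.015 summed, 0.68 without the 3, 0.65 with both, and -0.33 to 0.16 with 1 left out; Pmaip1 was -0.33 to 0.019; Bax was 0.0082 with upper quartile factors and -0.13 to 0.066 with 1 left out. In relapse against stable, Bcl2 was -0.18 to 0.064, and Bbc3 was 0.0047 summed, 0.0051 with both, and -0.11 to 0.089. The cause was not tested. Replicate numbers did not pair tumours: same-numbered tumours of 2 groups had correlations of -0.258 to 0.358 over 21 pairs, 3 of them over 0.1, and 5 of 42 tumour comparisons were best with their own number. Under this block Bbc3 in relapse (adjusted p = 0.0505), and Bad (0.0580) and Bak1 (0.0638) in stable tumours, were not called, nor were Apaf1 in relapse (0.0598) and Ddit3 in stable tumours (0.0927). In the fit of 2 groups Bbc3 (adjusted p = 0.0707), Bad (0.0690) and Bak1 (0.122) in stable tumours were not called, and with no filter Bbc3 in relapse (0.0511) and Bak1 in stable tumours (0.0699) were not. No member changed direction in any fit of a comparison with vehicle in which it was called.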

Other observations

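Within a tumour, the log2 ratio of Bmf to Mcl1 CPM was -2.84 to -1.75 in relapse tumours (median -2.42), -2.56 to -1.44 in stable tumours (median -2.12) and -5.33 to -2.76 in vehicle tumours (median -4.04). The ratio of Bcl2l11 to Mcl1 had medians of -1.83 in relapse, -1.69 in stable and -2.13 in vehicle tumours, with ranges that overlapped. Bax to Bcl2 had medians of -3.15, -3.64 and -3.38 in relapse, stable and vehicle tumours. All vehicle ratios here include vehicle 2, 6 and 7, and none was taken without them. With and without these 3, the vehicle mean was 32.1 and 43.2 CPM for Bmf. For Mcl1 it was 387 and 390 CPM, and for Bcl2l11 81.2 and 93.3 CPM. Bax averaged 10.1 and 10.5 CPM, and Bcl2 137 and 76.3 CPM. The part of these 3 tumours in the ratios was not tested. The ratios are on the scale of reads, not of length, and carry no test.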
